A study of Mus musculus with 12 samples.

Results

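The transcripts described here are those of 10 glutathione and Nrf2 target genes: Nfe2l2, Slc7a11, Gclc, Gclm, Gsr, Txnrd1, Srxn1, Nqo1, Gpx1 and Gpx4. They were found by matching these mouse symbols to the Ensembl identifiers of a read count table, which held all 10 among 46078 genes. All 10 passed the filter on low counts, which left 15866 genes to test, and their counts in a library ran from 99 to 6783 reads. RNA was taken by laser capture microdissection from ventrolateral spinal cord white matter of C57Bl6 mice. The young naïve and middle-aged naïve groups were not injected, and the young injured and middle-aged injured groups were collected 72 h after lysolecithin, a detergent-like lipid that strips myelin, was injected into this white matter. According to the methods young mice were 6 weeks old and middle-aged mice 8 months old. Each group had 3 libraries, each of them a pool of tissue from 5 mice, so differences between the mice of a pool were not measured. Neither a sham nor a vehicle injection is among the 4 groups, so the effect of the detergent and that of the injection cannot be told apart.

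Glutathione is the main small thiol of cells. It is built from cysteine, glutamate and glycine, it is spent by peroxidases that reduce hydrogen peroxide and oxidised lipids, and it is regenerated with NADPH. The transcription factor Nrf2, encoded by Nfe2l2, is held down by its partner Keap1 until oxidants or electrophiles release it. It then pairs with small Maf proteins and binds antioxidant response elements near genes for glutathione synthesis, thioredoxin recycling and quinone reduction. White matter is rich in lipid and in iron held by oligodendrocytes, which makes lipid peroxidation a well-known hazard there. Because Nrf2 is controlled largely through the stability of its protein, a transcript level does not report its activity.

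The core of the antioxidant response element was searched in RefSeq promoter windows of build GRCm38.p6, each running from 250 bases before to 50 bases after an annotated start site. The motif searched was TGACNNNGC, on both strands. It was present in 12.4% of all 32851 windows, and in at least 1 window of 14.0% of the 27025 symbols that had any. Of the 8 members with a window, 4 held it: Nfe2l2, Gclm, Txnrd1 and Srxn1. The stretches are shown because these are the letters through which Nrf2 is known to act, with the 9 matching bases in capitals, on the strand of the gene and from 5′ to 3′.
Nfe2l2, chr2:75704865-75704913, minus strand: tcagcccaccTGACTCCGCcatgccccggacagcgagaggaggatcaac
Gclm, chr3:122245393-122245461, plus strand: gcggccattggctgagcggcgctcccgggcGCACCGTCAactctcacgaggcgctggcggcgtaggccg
Txnrd1, chr10:82859084-82859152, plus strand: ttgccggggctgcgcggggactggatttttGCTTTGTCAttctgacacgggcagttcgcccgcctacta
Srxn1, chr2:152105542-152105570, plus strand: gcagtgggcaGCTAGGTCAgagtgagaca
The match began 240 bases before the start site in Nfe2l2 and lay there on the strand of the gene. In the other three genes the motif was on the opposite strand, so it reads from right to left in the lines above. It began 134 bases before the start site in Gclm, 92 bases before the second of 3 annotated start sites in Txnrd1, and 28 bases after the start site in Srxn1. In Nqo1, Slc7a11, Gpx1 and Gpx4 these letters were not in the windows, whose number was 4 for Gpx4 and 1 for each of the others. Bases outside the windows were not searched, so a gene without a match here may still hold the motif. For Gclc and Gsr no window was available, so these genes were not searched. With 3 start sites Txnrd1 had more bases in which to match than a gene with 1, and a match is a string of letters and not a measured binding site.

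The genes did not move in a common direction with injury. At an adjusted p under 0.05 in edgeR's quasi-likelihood test, 9 of the 10 passed in young mice, against 54.6% of all genes tested, with 5 higher (28.3% of all genes were) and 4 lower (26.3%). In middle-aged mice 8 of the 10 passed, against 58.5% of all genes tested, with 4 higher (29.2% of all genes) and 4 lower (29.3%). More than every second gene of the table passed in each comparison, so passing is common here and the direction and size carry the description. The median log2 fold change of the 10 genes was 0.31 in young and 0.26 in middle-aged mice, beside 0.00 and -0.03 over all genes tested. Nfe2l2, Txnrd1, Gsr and Gpx1 rose at both ages, and Gclc, Gclm, Nqo1 and Gpx4 fell at both ages. The pools of injured and naïve mice did not overlap for 9 of the 10 genes in young mice, as for 67.2% of all genes tested, and for 8 of the 10 in middle-aged mice, as for 61.1% of all genes.

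**Figure D1:**
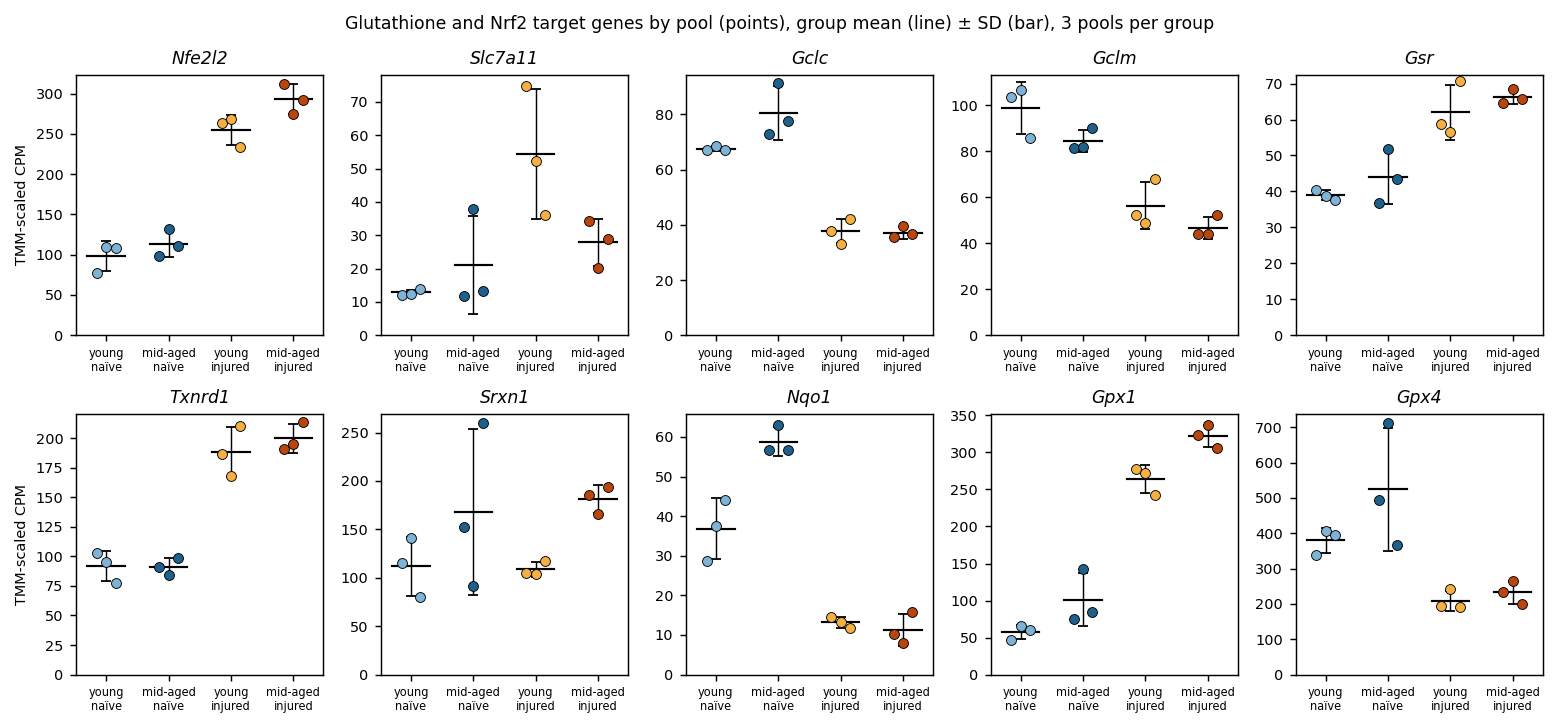
Level of each gene in each of the 12 pools, in CPM (TMM-scaled counts), with a panel per gene and an axis from 0. Points are pools, lines the mean of 3 pools and bars the SD; the injured pools stand above the naïve pools for Nfe2l2, Gsr, Txnrd1 and Gpx1 and below them for Gclc, Gclm, Nqo1 and Gpx4.

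Injured tissue differed from naïve tissue in its cells, and a bulk sample cannot tell fewer cells of a type from less RNA per cell. All 6 oligodendrocyte markers fell at both ages, and their summed level was 86700 to 101953 CPM in young naïve pools, 53009 to 60301 CPM in middle-aged naïve pools, 18252 to 20256 CPM in young injured pools and 7930 to 12447 CPM in middle-aged injured pools. All 8 pan-myeloid markers rose at both ages, from 99.9 to 134 CPM summed in young naïve pools and 157 to 225 CPM in middle-aged naïve pools to 1959 to 2011 CPM in young and 2011 to 2593 CPM in middle-aged pools after injury. The 6 monocyte and macrophage markers also rose at both ages, and of these Plac8 and Chil3 had at most 3 reads in every naïve pool. All 4 meningeal fibroblast markers rose at both ages, and their summed level was 58.8 to 68.8 CPM in young naïve pools, 60.1 to 99.8 CPM in middle-aged naïve pools, 634 to 1025 CPM in young injured pools and 288 to 556 CPM in middle-aged injured pools. Of 6 astrocyte markers 5 fell at each age, while summed neutrophil markers stayed at or below 3.16 CPM in every pool. The naïve pools thus carried the glial markers of the labelled white matter, and summed neuronal markers of 681 to 1976 CPM beside them. These shifts moved together with every injury difference below, and their part in those differences was not tested.

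Nfe2l2 (ENSMUSG00000015839, chr2:75675513-75704641, minus strand, GRCm38), the gene of Nrf2 itself, was raised by injury at both ages. Its level was 76.9, 109.5 and 109 CPM in young naïve pools 1 to 3, 98.9, 132 and 110.5 CPM in middle-aged naïve pools, 264, 268 and 234 CPM in young injured pools, and 312, 274 and 293 CPM in middle-aged injured pools. Every injured pool stood above every naïve pool. The log2 fold change was 1.38 ± 0.15 (SE, adjusted p = 2.39e-06) in young and 1.37 ± 0.15 (SE, adjusted p = 2.19e-06) in middle-aged mice. Between the ages the effect differed by -0.01 on the log2 scale, with 2 standard errors on either side reaching from -0.42 to 0.40. Among genes tested, those whose 4 group means ran most like Nfe2l2 were Trim34b, Gm21958 and Rplp0, at distances of 0.0132, 0.0249 and 0.0352 in centred log2 CPM over the 4 groups. Trim34b and Gm21958 were low, with group means of -0.78 to 0.82 and 0.62 to 2.18 log2 CPM. Rplp0 was at 6.73 to 8.35 log2 CPM.

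Glutathione synthesis starts with cystine, which Slc7a11, the transport chain of the cystine-glutamate exchanger xCT, brings into the cell. Slc7a11 (ENSMUSG00000027737, chr3:49892526-50443614, minus strand) had the lowest level of the 10 genes per kilobase of exon, and 2.84% of the 31-base words of its transcripts occur in other genes. It was measured at 12.2, 12.5 and 13.8 CPM in young naïve pools, 11.9, 37.9 and 13.4 CPM in middle-aged naïve pools, 74.8, 52.3 and 36.1 CPM in young injured pools, and 34.2, 20.3 and 29.0 CPM in middle-aged injured pools. The second middle-aged naïve pool stood above every pool of its own group and above every middle-aged injured pool. Slc7a11 rose with injury in young mice by a log2 fold change of 2.09 ± 0.39 (SE, adjusted p = 0.000376). In middle-aged mice the log2 fold change was 0.41 ± 0.37 (SE) and did not pass (adjusted p = 0.365). Without the second middle-aged naïve pool it was 1.14, with an adjusted p of 0.00267, so this pool decided the call.

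That pool also held the highest level of its group for Gpx1, Gpx4, Gclc, Gsr, Nqo1 and Nfe2l2. For Srxn1 and Txnrd1 it held the lowest level, and for Gclm it lay between the other pools of the group. It stood apart for genes outside the 10 as well, chosen after their values were seen: Tmem119, a gene of resting microglia, was at 193 CPM there and at 43.6 and 64.6 CPM in the other pools of the group, and Sod1, the cytosolic superoxide dismutase, at 145 CPM against 52.9 and 67.1 CPM. The young and middle-aged effects on Slc7a11 differed by -1.68 ± 0.53 (SE) on the log2 scale, and by -0.95 without that pool. With all pools this difference had an unadjusted p of 0.00719 and an adjusted p of 0.259 in edgeR's test over all genes, so no difference between the ages was called.

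Gclc and Gclm encode the catalytic and the modifier subunit of glutamate-cysteine ligase, the rate-limiting enzyme of glutathione synthesis, and both fell. Gclc (ENSMUSG00000032350, chr9:77754535-77794485, plus strand) was at 67.1, 68.6 and 67.1 CPM in young naïve pools, 72.8, 91.5 and 77.5 CPM in middle-aged naïve pools, 37.8, 33.2 and 42.0 CPM in young injured pools, and 35.4, 39.6 and 36.5 CPM in middle-aged injured pools. The injured pools lay close together at both ages and all below the naïve pools. Its log2 fold change was -0.84 ± 0.13 (SE, adjusted p = 6.71e-05) in young and -1.12 ± 0.13 (SE, adjusted p = 4.25e-06) in middle-aged mice.

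Gclm (ENSMUSG00000028124, chr3:122245557-122270732, plus strand) was at 103, 107 and 85.7 CPM in young naïve pools, 81.2, 82.1 and 90.2 CPM in middle-aged naïve pools, 52.4, 48.7 and 68.1 CPM in young injured pools, and 43.9, 43.9 and 52.3 CPM in middle-aged injured pools. Again no injured pool reached a naïve one. The log2 fold change was -0.81 ± 0.14 (SE, adjusted p = 0.000284) in young and -0.86 ± 0.15 (SE, adjusted p = 0.000161) in middle-aged mice. Of the Gclm transcripts' 31-base words 5.61% also occur in other genes, among them Ppia and Gm6061, and Gm17494 lies on its opposite strand, so a part of its reads is uncertain. Gm6061 had 45 to 94 reads and Gm17494 71 to 119 reads in a library, against 529 to 1177 for Gclm.

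Recycling enzymes moved the opposite way. Gsr, glutathione reductase, returns oxidised glutathione to its reduced form with NADPH. Gsr (ENSMUSG00000031584, chr8:33652523-33698163, plus strand) was at 40.5, 38.7 and 37.6 CPM in young naïve pools, 36.7, 51.7 and 43.4 CPM in middle-aged naïve pools, 58.8, 56.5 and 70.8 CPM in young injured pools, and 64.7, 68.5 and 65.8 CPM in middle-aged injured pools. Both injured groups were above both naïve groups without overlap. The rise was modest, at a log2 fold change of 0.67 ± 0.14 (SE, adjusted p = 0.000955) in young and 0.60 ± 0.14 (SE, adjusted p = 0.0021) in middle-aged mice.

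Txnrd1, the cytosolic thioredoxin reductase, is a selenoprotein that keeps thioredoxin reduced. Txnrd1 (ENSMUSG00000020250, chr10:82833951-82897712, plus strand) was at 103, 95.3 and 77.8 CPM in young naïve pools, 91.4, 83.8 and 99.0 CPM in middle-aged naïve pools, 187, 168 and 210.3 CPM in young injured pools, and 191, 195 and 214 CPM in middle-aged injured pools. The naïve groups overlapped each other, as did the injured groups, with a wide gap between the conditions. Its log2 fold change was 1.04 ± 0.13 (SE, adjusted p = 9.86e-06) in young and 1.13 ± 0.13 (SE, adjusted p = 3.78e-06) in middle-aged mice. The annotation places Gm38560 and Gm47073 on its opposite strand and Eid3 on its own, and the strand setting of the counting is not given in the sources used here.

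Srxn1, sulfiredoxin, repairs peroxiredoxins that have been oxidised too far, and it was the only member that passed at neither age. Srxn1 (ENSMUSG00000032802, chr2:152105516-152111376, plus strand) was at 115, 141 and 80.2 CPM in young naïve pools, 152, 91.8 and 260.4 CPM in middle-aged naïve pools, 105, 104 and 117 CPM in young injured pools, and 186, 166 and 194 CPM in middle-aged injured pools. The naïve pools were widely spread and the injured pools tightly grouped within each age. The log2 fold change was -0.05 ± 0.28 (SE, adjusted p = 0.904) in young and 0.11 ± 0.28 (SE, adjusted p = 0.752) in middle-aged mice, with 2 standard errors reaching from -0.61 to 0.51 and from -0.44 to 0.67. Changes within those bounds are not excluded by these pools. Without the third middle-aged naïve pool the value in middle-aged mice was 0.58 (adjusted p = 0.045), and without the second it was -0.18.

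Nqo1 encodes a quinone reductase and is a textbook readout of Nrf2 activity. Among the 10 genes it fell furthest. Nqo1 (ENSMUSG00000003849, chr8:107388225-107403206, minus strand) was at 28.8, 37.6 and 44.2 CPM in young naïve pools, 56.6, 63.1 and 56.7 CPM in middle-aged naïve pools, 14.5, 13.3 and 11.8 CPM in young injured pools, and 10.3, 7.91 and 15.8 CPM in middle-aged injured pools. Injured pools of the 2 ages overlapped, whereas naïve pools did not. The log2 fold change by injury was -1.48 ± 0.22 (SE, adjusted p = 6.47e-05) in young and -2.38 ± 0.23 (SE, adjusted p = 6.95e-07) in middle-aged mice. The effect was -0.90 ± 0.31 (SE) apart between the ages, which gave an unadjusted p of 0.0123 and an adjusted p of 0.322 in edgeR's test.

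The glutathione peroxidases Gpx1 and Gpx4 use the glutathione so made, and they went in opposite directions. Gpx1 reduces soluble hydroperoxides, above all hydrogen peroxide. Gpx1 (ENSMUSG00000063856, chr9:108338903-108340343, plus strand) was at 46.6, 65.9 and 59.8 CPM in young naïve pools, 75.6, 142 and 85.1 CPM in middle-aged naïve pools, 277, 273 and 242 CPM in young injured pools, and 323, 337 and 306 CPM in middle-aged injured pools. All injured pools were above the highest naïve pool. Its log2 fold change of 2.20 ± 0.20 (SE, adjusted p = 5.14e-07) in young mice was the highest of the 10, and that of 1.68 ± 0.20 (SE, adjusted p = 5.38e-06) in middle-aged mice was also the highest.

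Gpx4 reduces peroxidised phospholipids inside membranes and is the enzyme whose loss permits ferroptosis, an iron-dependent death by lipid peroxidation. Gpx4 (ENSMUSG00000075706, chr10:80047166-80056439, plus strand) was at 339, 406 and 394 CPM in young naïve pools, 495, 712 and 368 CPM in middle-aged naïve pools, 195, 241 and 191 CPM in young injured pools, and 235, 265 and 199 CPM in middle-aged injured pools. The lowest naïve pool was above the highest injured pool at each age. The log2 fold change was -0.86 ± 0.20 (SE, adjusted p = 0.00192) in young and -1.17 ± 0.20 (SE, adjusted p = 0.000152) in middle-aged mice. Of the 31-base words of its transcripts 38.9% are shared with Gpx4-ps2 and AC122253.3, which have no row in the table, and how shared reads were counted is not given in the sources used here, so its level is the least certain of the 10.

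**Figure D2:**
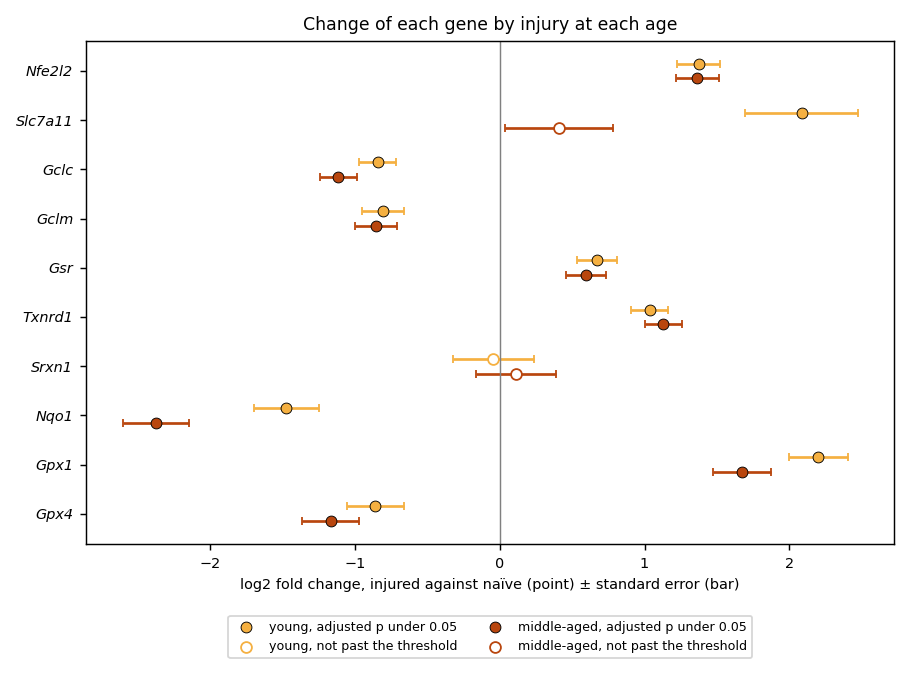
Log2 fold change of each gene, injured against naïve, in young (light) and middle-aged (dark) mice, with the standard error as bars and open points for genes that did not pass an adjusted p of 0.05. Gpx1 lies furthest to the right and Nqo1 furthest to the left at both ages, Slc7a11 in young mice comes next to Gpx1 at 2.09, and the points of the 2 ages lie closest for Nfe2l2.

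Scaled to exon length, the order of the genes changed with injury. In young naïve tissue Gpx4 led at 220.2 ± 20.9 CPM per kilobase (SD, n = 3), and Gpx1 followed at 39.9 ± 6.83. In young injured tissue Gpx1 led at 183 ± 13.3 CPM per kilobase and Gpx4 followed at 121 ± 16.3, without overlap of the pools. Middle-aged mice had the same exchange, with Gpx4 at 304 ± 101 and Gpx1 at 70.1 ± 25.0 CPM per kilobase in naïve tissue, and Gpx1 at 224 ± 10.7 and Gpx4 at 135 ± 19.2 in injured tissue. Nfe2l2 took the third place after injury at both ages, at 67.2 ± 4.94 and 77.2 ± 4.96 CPM per kilobase, and Slc7a11 was last in all 4 groups, at 0.921 ± 0.0593 in young naïve and 3.91 ± 1.39 in young injured tissue. Neighbours whose pools overlapped included Gpx1 with Srxn1 and Gclm with Gsr in both naïve groups, and Gclm with Nqo1 in both injured groups. The length used was the union of all annotated exons of a gene, which understates genes of which mainly a short transcript is made. Of the 31-base words of Gpx4 transcripts 38.9% are shared with other genes, and none of those of Gpx1. If shared reads were left out of the counts, Gpx4 is understated, so which of the pair led after injury is uncertain.

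**Figure D3:**
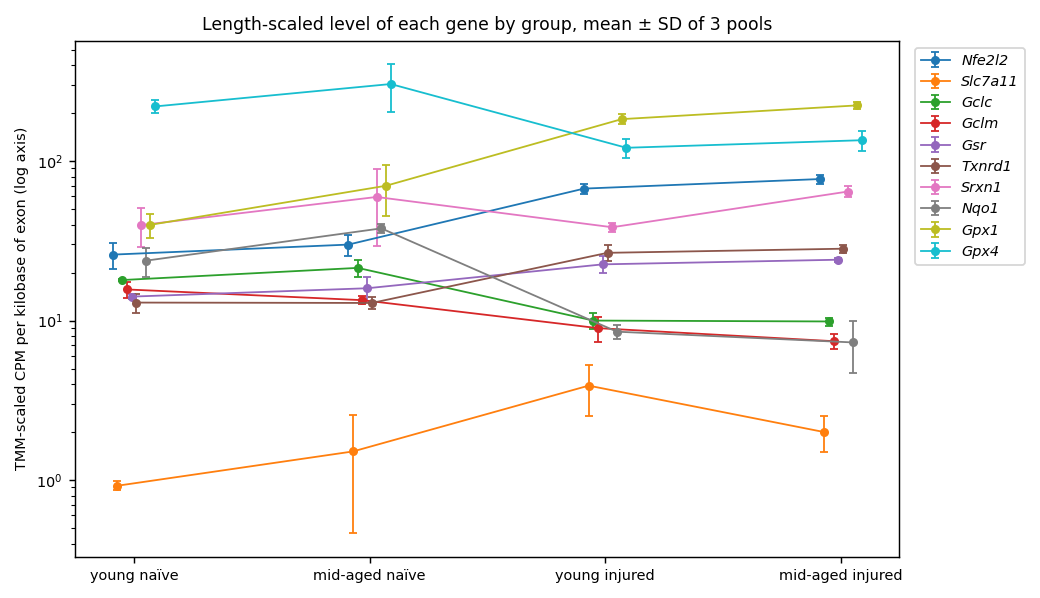
Mean level of each gene per kilobase of exon in the 4 groups on a log axis, with the SD of 3 pools as bars and lines joining the values of a gene. The Gpx4 and Gpx1 lines cross between naïve and injured tissue, and Slc7a11 lies at the bottom in every group. The height of the Gpx4 line is uncertain because of its shared reads.

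The ratio of 2 genes within a library does not depend on how libraries are scaled. The ratio of Gpx1 to Gpx4 reads was 0.138, 0.162 and 0.152 in young naïve pools and 0.153, 0.200 and 0.231 in middle-aged naïve pools. After injury it was 1.42, 1.13 and 1.27 in young and 1.38, 1.27 and 1.54 in middle-aged pools. The group means thus went from 0.151 ± 0.0123 to 1.27 ± 0.147 in young mice, and from 0.195 ± 0.0395 to 1.39 ± 0.134 in middle-aged mice (SD, n = 3). This is an 8.45-fold and a 7.25-fold shift. An exact 2-sided permutation test within ages gave p = 0.005, the smallest value that its 400 arrangements allow. Within an age alone 3 pools against 3 cannot go below p = 0.1, and both ages gave that value in the exact permutation test. Gpx1 rose and Gpx4 fell without overlap of the pools at each age, so their ratio was bound to separate. These p-values were thus fixed by the results of the 2 genes and add nothing to them.

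The subunits of glutamate-cysteine ligase kept a steadier ratio. Gclm to Gclc was 1.46 ± 0.157 before and 1.49 ± 0.119 after injury in young pools, and 1.06 ± 0.142 before and 1.26 ± 0.163 after it in middle-aged pools (SD, n = 3). The mean log2 shift by injury was 0.14, with an exact permutation p of 0.195, so it did not exceed the spread between pools. Slc7a11 works in a pair with Slc3a2, the heavy chain that carries it to the membrane. Their ratio ran from 0.339 to 0.430 in young pools before injury and from 0.518 to 1.26 after it, and the middle-aged pools gave 0.421 to 1.24 before and 0.277 to 0.532 after. It was higher after injury in young mice without overlap of the pools (exact permutation p = 0.1, the smallest possible), and overlapped in middle-aged mice (exact permutation p = 0.6). Over both ages the exact permutation p was 0.595. These are 3 ratios, and of their pooled p-values only that of Gpx1 to Gpx4, fixed by the results of its genes, stays under 0.05.

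**Figure D4:**
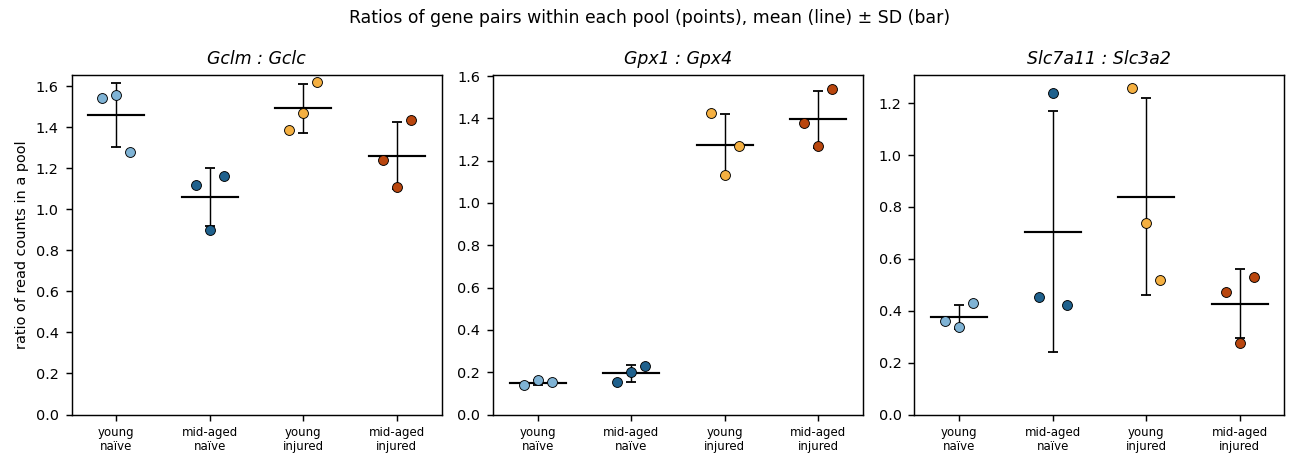
Ratios of read counts within each pool for Gclm to Gclc, Gpx1 to Gpx4 and Slc7a11 to Slc3a2, with axes from 0, points for pools, lines for the mean of 3 pools and bars for the SD. Gpx1 to Gpx4 lies at 0.231 or below in all naïve pools and at 1.13 or above in all injured pools, and the other ratios overlap between conditions in at least 1 age.

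The wider pathway was described with 7 lists of 90 further genes, of which 81 could be tested. In young mice 25 rose and 24 fell by injury, where 28.3% of all genes tested rose and 26.3% fell. In middle-aged mice 21 rose and 30 fell, where 29.2% of all genes rose and 29.3% fell. These shares are to be read beside the counts of the lists below. The median log2 fold change of the 81 genes was 0.07 in young and -0.04 in middle-aged mice, near those of all genes. Genes of the lists thus moved in both directions, as did genes over the whole table.

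Of 9 genes that control Nrf2 or pair with it, 4 rose and 1 fell at each age. In young mice 28.3% of all genes tested rose and 26.3% fell, and in middle-aged mice 29.2% rose and 29.3% fell. Maff, a small Maf partner, was low, at 0.981 ± 0.427 CPM in young naïve and 4.53 ± 0.970 CPM in young injured pools (SD, n = 3), and its log2 fold changes were 2.21 ± 0.45 and 2.30 ± 0.44 (SE). Bach1, the repressor that competes with Nrf2 for the same elements, rose at both ages, by log2 fold changes of 1.57 (young, adjusted p = 2.51e-07) and 1.57 (middle-aged, adjusted p = 1.95e-07). Keap1, the sensor that marks Nrf2 for destruction, ran from 38.9 to 47.8 CPM over all 12 pools, with log2 fold changes of -0.07 and -0.04 that did not pass and whose sign turned when libraries were scaled by their totals alone. Bach1 and Keap1, like Gss further on, were named after their values were seen. Sqstm1, the autophagy receptor p62 that can sequester Keap1, fell by 0.36 in young (adjusted p = 0.0348) and by 0.63 in middle-aged mice (adjusted p = 0.00116), and the first of these did not pass when libraries were scaled by their totals alone or when any of 4 young pools was left out. Nfe2l1, a relative of Nfe2l2, and Cul3, the ligase scaffold that acts with Keap1, were not past the threshold at either age.

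Of 14 genes of glutathione supply and turnover, 3 rose and 6 fell in young mice, and 3 rose and 7 fell in middle-aged mice. Among all genes tested the shares were 28.3% and 26.3% in young mice, and 29.2% and 29.3% in middle-aged mice. Gss, glutathione synthetase, which completes the molecule, fell with the ligase subunits, by 1.29 in young and by 2.01 in middle-aged mice on the log2 scale (adjusted p = 0.000117 and 1.8e-06). Slc3a2 rose from 34.3 ± 2.45 to 66.6 ± 6.27 CPM in young and from 29.5 ± 2.87 to 66.8 ± 10.6 CPM in middle-aged mice. Anpep, an aminopeptidase that cleaves a breakdown product of glutathione and is also a myeloid surface protein, rose most, from 1.46 to 11.7 CPM in young naïve pools to 256 to 334 CPM in young injured pools. The lowest log2 fold change in young mice was that of Ggt1, a gamma-glutamyl transferase, at -1.89 ± 0.66 (SE, adjusted p = 0.0255), from a level of 1.62 ± 0.293 CPM, and it did not pass when any of 4 young pools was left out. Slc1a4, a transporter of neutral amino acids and by reads among the 3 most abundant genes of the list, was at 35.8 ± 3.80 CPM in young naïve and 29.8 ± 1.32 CPM in young injured pools, a log2 fold change of -0.27 ± 0.14 (SE) that did not pass (adjusted p = 0.132). In middle-aged mice it fell from 32.0 ± 3.46 CPM before to 22.1 ± 2.27 CPM after injury, by 0.54 on the log2 scale (adjusted p = 0.00559).

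All 3 of the further glutathione peroxidases that could be tested rose at both ages, namely Gpx3, Gpx7 and Gpx8, while Gpx2 and Gpx6 were too low to test. Over all genes tested 28.3% rose in young and 29.2% in middle-aged mice. Gpx3, the secreted peroxidase, went from 5.25 ± 2.01 to 36.03 ± 1.71 CPM in young mice while middle-aged mice went from 12.8 ± 4.79 to 27.4 ± 3.49 CPM (SD, n = 3). Gpx7 went from 45.2 ± 26.6 to 149.8 ± 76.4 CPM and Gpx8 from 4.801 ± 1.98 to 16.1 ± 1.90 CPM in young mice. Gpx7 and Gpx8 belong to the endoplasmic reticulum. With Gpx1, this makes 4 of 5 measured family members that rose, and Gpx4 the 1 that fell.

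Most thioredoxin and peroxiredoxin genes did not pass, 9 of 14 in young and 10 of 14 in middle-aged mice. Of 14, 4 rose and 1 fell in young mice, beside 28.3% and 26.3% of all genes tested. In middle-aged mice 3 rose and 1 fell, beside 29.2% and 29.3% of all genes. Txn1, thioredoxin itself and the substrate of Txnrd1, went up from 26.1 ± 3.94 to 78.3 ± 2.42 CPM in young and from 25.7 ± 7.57 to 76.9 ± 0.972 CPM in middle-aged mice. Txnip, which binds and restrains thioredoxin, rose with it, by log2 fold changes of 1.42 ± 0.18 and 1.25 ± 0.18 (SE). Prdx1 had the most reads of the list, 1473 ± 203 CPM in young naïve pools, and its log2 fold changes of 0.30 ± 0.14 at both ages did not pass, although they did without the second middle-aged naïve pool (adjusted p = 0.0386 and 0.00849). Prdx6 rose in young mice, from 594 ± 80.9 to 1022 ± 158 CPM. In middle-aged mice its log2 fold change of 0.38 ± 0.17 (SE) did not pass (adjusted p = 0.0736). It did pass there with scaling by library totals alone, without the filter and with the replicate block. The same held without the second middle-aged naïve pool or the first middle-aged injured pool. The gene that fell at each age was Txnrd3, a reductase best known from testis, by 1.09 and 1.03 on the log2 scale. The second of these did not pass without the third middle-aged naïve pool (adjusted p = 0.0525).

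Of the 4 superoxide dismutase and catalase genes, Cat, which splits hydrogen peroxide, fell at both ages, from 252 ± 12.1 to 146 ± 19.0 CPM in young and from 229 ± 10.3 to 110.4 ± 7.34 CPM in middle-aged mice. Sod1 and the mitochondrial Sod2 passed in middle-aged mice, with log2 fold changes of -1.02 ± 0.27 and -0.54 ± 0.21 (SE). Without the second middle-aged naïve pool that of Sod1 was -0.46 and still passed. The Sod2 call was lost without that pool (-0.30, adjusted p = 0.197), and also when any injured pool or the second young naïve pool was left out, with only the pools compared, and when libraries were scaled by their totals alone. In young mice they were at -0.51 ± 0.27 and -0.45 ± 0.21 and did not pass, but both passed there without the second middle-aged naïve pool (adjusted p = 0.0019 and 0.0375). With all pools the difference between the ages did not pass for any gene of this list. The extracellular Sod3 rose in young mice from 0.472 ± 0.387 to 1.69 ± 0.200 CPM, and this call was lost in most fits that left out a young pool.

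Glutathione S-transferases, which join glutathione to electrophiles, fell more often than they rose. Of 18 that could be tested, 3 rose and 9 fell in young mice, and 1 rose and 11 fell in middle-aged mice, with median log2 fold changes of -0.61 and -1.21. Over all genes tested 28.3% rose and 26.3% fell in young mice, and 29.2% rose and 29.3% fell in middle-aged mice. Gstm7 fell by 1.93 and Mgst3, a membrane-bound member, by 1.56 on the log2 scale in young mice. Gstm1 went from 83.9 ± 3.73 to 62.6 ± 5.44 CPM in young and from 141 ± 16.8 to 73.2 ± 8.21 CPM in middle-aged mice, and the first of these did not pass when libraries were scaled by their totals alone (adjusted p = 0.141). Mgst1, another membrane-bound member, rose in young mice from 36.2 ± 7.74 to 48.5 ± 4.28 CPM (log2 fold change 0.42 ± 0.17, adjusted p = 0.0449), and it was at 55.8 ± 6.70 CPM before and 48.0 ± 6.07 CPM after injury in middle-aged mice (log2 fold change -0.22 ± 0.17, adjusted p = 0.276). The call in young mice was lost with upper quartile scaling, without the filter and when any young injured pool, the first young naïve pool or the first or second middle-aged injured pool was left out, and without that young naïve pool the log2 fold change was 0.26. The highest log2 fold change in young mice belonged to Gstm2, which had 0 to 5 reads in young naïve and 17 to 42 reads in young injured pools. These genes form a family of close copies in which reads can be shared.

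Other textbook Nrf2 targets were divided, with 7 of 19 higher and 6 lower in young mice and 7 higher and 7 lower in middle-aged mice. All genes tested were divided too, with 28.3% higher and 26.3% lower in young and 29.2% higher and 29.3% lower in middle-aged mice. Hmox1, heme oxygenase, which breaks down heme and releases its iron, was at 1.18, 1.09 and 1.29 CPM in young naïve pools and at 73.5, 62.3 and 257 CPM in young injured pools. In middle-aged mice it was at 2.98, 1.15 and 3.04 CPM before and 89.8, 126 and 116 CPM after injury. Its log2 fold change was 6.78 ± 0.59 in young and 5.50 ± 0.53 in middle-aged mice (SE), the highest of the list. The ferritin chains parted. The light chain gene Ftl1 rose in young mice, from 106 ± 5.81 to 1464 ± 148 CPM, and the heavy chain gene Fth1, whose product oxidises iron for storage, fell from 8189 ± 923 to 3688 ± 100.2 CPM. Slc48a1, a heme transporter, fell by 1.47, and Taldo1, transaldolase of the pentose phosphate pathway, by 0.73 on the log2 scale.

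**Figure D5:**
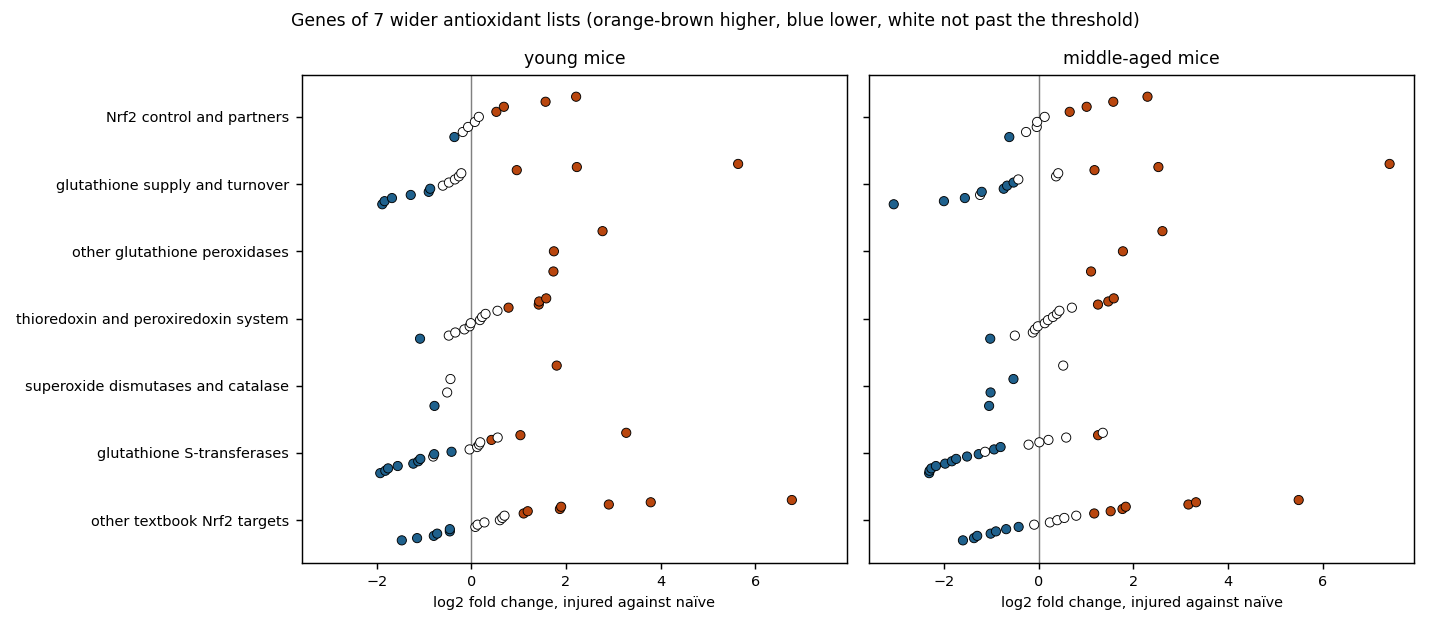
Log2 fold change by injury of the 81 tested genes of 7 antioxidant lists in young (left) and middle-aged (right) mice, 1 point per gene, dark orange for higher, blue for lower and white for genes that did not pass. Other glutathione peroxidases lie to the right of 0, most glutathione S-transferases to the left, and Hmox1 and Anpep are the points furthest to the right.

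Age was compared within naïve and within injured tissue, with naïve and injured groups shared between these comparisons and those by injury. In naïve tissue only Gpx1 passed, 1 of the 10 genes against 3.80% of all genes tested (2.02% in this direction), at a log2 difference of 0.81 ± 0.20 (SE, adjusted p = 0.0386), middle-aged above young. The call depended on individual pools, since without the second middle-aged naïve pool the difference was 0.48 with an adjusted p of 0.0674, and it was also lost when any young naïve or any injured pool was left out. Without that second pool Srxn1 passed in its place, at 0.88 (adjusted p = 0.0384), against 0.59 with all pools. Within naïve tissue 6 of 8 pan-myeloid markers were higher and 3 of 6 oligodendrocyte markers lower in middle-aged pools, and their part in the Gpx1 difference was not tested. Nqo1 was 0.67 ± 0.22 higher on the log2 scale without overlap of the pools, with an adjusted p of 0.106 in edgeR and of 0.0425 in DESeq2. Gclc did not overlap either, at 0.25 ± 0.13 (adjusted p = 0.311), nor did Gpx1, which made 3 of the 10 genes beside 17.1% of all genes tested. In the wider lists 5 genes were higher and 1 was lower in middle-aged naïve tissue, among them Gpx3 (1.27 ± 0.28), Gstm1 (0.75 ± 0.13) and Ftl1 (0.90 ± 0.17), which were higher, and Gpx8 (-1.22 ± 0.28). With the naïve pools alone in the fit neither Gpx3, Gpx8 nor Gstm1 passed. In that fit 71 genes passed over the whole table, against 603 with all pools.

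In injured tissue none of the 10 genes passed in edgeR's test, where 1.15% of all genes did, and none passed in DESeq2. An unadjusted p under 0.05 was reached by 2 of them. Slc7a11 differed by -0.97 ± 0.37 on the log2 scale, middle-aged against young injured pools (unadjusted p = 0.0198, adjusted p = 0.328), and Srxn1 was 0.74 ± 0.28 higher (unadjusted p = 0.0187, adjusted p = 0.324). Both had pools that did not overlap, as did Nfe2l2 and Gpx1, whose differences were 0.20 ± 0.14 and 0.29 ± 0.19, so that 4 of the 10 genes did not overlap, beside 23.3% of all genes tested. With the injured pools alone in the fit Slc7a11 (adjusted p = 0.0393) and Srxn1 (adjusted p = 0.00165) both passed. In that fit 818 genes passed over the whole table, against 182 with all pools. Of the 81 further genes only Gpx8 passed, lower by 1.18 (adjusted p = 0.0333), and it was not past the threshold when any injured pool was left out. In the same pools 5 of 6 oligodendrocyte markers, 2 of 4 meningeal fibroblast markers (288 to 556 CPM summed, against 634 to 1025 CPM in young pools) and 1 of 6 astrocyte markers were lower in middle-aged than in young mice, and no pan-myeloid marker passed. Their part in the differences between ages was not tested.

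The effect of injury itself differed between the ages for none of the 10 genes, with 0.139% of all genes passing that test in edgeR, and for none in DESeq2. Slc7a11 and Nqo1 were the 2 with an unadjusted p under 0.05. Intervals of 2 standard errors leave room for differences: for Gclc they ran from -0.63 to 0.09, for Gpx1 from -1.08 to 0.03 and for Gpx4 from -0.86 to 0.25 on the log2 scale. For Txnrd1 the difference was 0.09, with bounds of -0.27 and 0.46. None of the 81 further genes passed, and 13 had an unadjusted p under 0.05.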

How the data were processed

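The 12 libraries were assigned to 4 groups of 3 pools by their labels. The authors amplified RNA while building libraries, sequenced on a NextSeq500, checked reads with FastQC 0.11.4, aligned them to GRCm38 (TopHat 2.0.10, using bowtie 1.1.2) and deposited raw featureCounts counts per gene. Amplified reads are not independent molecules. The annotation release, strand setting and handling of shared reads are not given in the sources used here. Library totals were 9834447 to 12807437 counts, and 3 counts, the floor used, came to 0.234 to 0.305 CPM; both cover counting error only. Symbols, positions and exon lengths came from GENCODE vM21.

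Counts were fitted with edgeR 4.0.16 (R 4.3.3): filterByExpr, TMM scaling, 1 model over all 12 pools, quasi-likelihood F tests and Benjamini-Hochberg adjustment over 15866 genes at 0.05. The standard error is the absolute log2 fold change over the square root of F. TMM factors were 0.921 to 1.09, the lowest that of the second middle-aged naïve pool. Pools of a group differed by more than sampling noise (chi-square per degree of freedom 7.48 to 35.7). The highest values, 35.7 and 32.7, were those of the second middle-aged naïve pool against the others of its group. Whether the 3 pools of a group came from different mice or separate preparations is not stated, so p-values measure only the spread between these pools, which may be technical. Ratios used exact permutation tests. The 10 genes and all lists were chosen with earlier results of these data known. Named from each list were its 3 most abundant genes and those with the highest and lowest log2 fold change by injury in young mice. Alternatives were other scalings (relative log expression, upper quartile, library totals), no filter, a filter of 1 CPM in 3 pools, DESeq2 1.42.0, only the pools compared, a replicate block and leaving out each pool. The authors' other experiments were not analysed here.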

Additional observations from a re-analysis of the deposited data

How the results depend on the processing

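Among the 10 genes, every call by injury held at both ages under each scaling, without the filter or with the stricter filter, with DESeq2, with only the pools compared, with the replicate block and with each pool left out; calls were gained for Slc7a11 and Srxn1 in middle-aged mice, each without 1 naïve pool. Counts between ages were less firm. In naïve tissue the 1 gene called became 2 without the filter, 2 with DESeq2 and 0 with only the pools compared. Calls over all genes went there from 603 to 1153, 1100 and 71. When a pool was left out, 0 to 1 of the 10 genes passed. Without the second middle-aged naïve pool the gene that passed was Srxn1 and not Gpx1. In injured tissue the count of 0 became 2 without the filter and 2 with only the pools compared. Calls over all genes went there from 182 to 437 and 818. The count for the 10 genes ran from 0 to 1 when a pool was left out, the 1 being without the second middle-aged naïve pool. The count of genes whose injury effect differed went from 0 to 1 without the filter, where Slc7a11 passed (adjusted p = 0.00272). Calls over all genes went from 22 to 329 with that change. The cause was not tested.

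Signs turned for differences that were not called, up to 0.71 with all pools for Slc7a11 between naïve ages. Scaling by library totals alone moved the median log2 fold change of all genes from 0.00 to 0.20 (young) and from -0.03 to 0.08 (middle-aged), and turned Srxn1 by injury in young mice to 0.15, Txnrd1 between naïve ages to 0.0219, Nfe2l1 by injury in young mice to 0.0125, and Keap1 by injury to 0.12 in young and 0.0715 in middle-aged mice. With only the pools compared Txnrd1 between naïve ages was at 0.0027. The difference of the injury effect for Nfe2l2 was 1.51e-05 with relative log expression and 0.00141 with DESeq2. With pools left out, Srxn1 by injury ran from -0.23 to 0.16 (young) and from -0.18 to 0.58 (middle-aged), Txnrd1 between naïve ages from -0.12 to 0.0759, Slc7a11 between naïve ages from -0.021 to 0.99, and Gclc between injured ages from -0.0965 to 0.0809. The difference of the injury effect then ran from -0.0997 to 0.14 for Nfe2l2, -0.15 to 0.11 for Gclm, -0.19 to 0.0581 for Gsr and -0.13 to 0.62 for Srxn1. For further genes, Cul3 in young mice ran from -0.00558 to 0.13 and Keap1 in middle-aged mice from -0.0873 to 0.0233. The same alternatives were applied to the named further genes after seeing the data: 546 of 567 values kept their direction and their side of the threshold under other settings, and 797 of 852 when a pool was left out.

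The replicate numbers did not pair the pools: deviations of same-numbered pools correlated at -0.11 to 0.15 over 18 pairs, and of others at -0.17 to 0.17 over 36 pairs. With the replicate block 9 of the 10 genes passed by injury in young and 8 in middle-aged mice. The Gpx1 to Gpx4 ratio gave an exact permutation p of 0.0312, the smallest that exchanging 6 pairs allows. This value was also fixed by the separation of the pools for each gene. With 3 pools a group, small differences between ages remain beyond what these libraries can resolve.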
